A study of Homo sapiens with 12 samples.

Results

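The regions described here are the H3K4me3 peaks of HepG2 cells, an established line grown from a human liver tumour. All peaks on chromosomes 1 to 22 and X of the deposited H3K4me3 list were taken, which gave 24446 of the 24481 peaks in that list; the other 35 lie on chromosome Y. They make up part of 273822 peaks in 3 lists, of H3K4me3, H3K27ac and H3K4me1, which were obtained by chromatin immunoprecipitation and sequencing. The list pools 3 H3K4me3 libraries, going by its name, and 3 control libraries accompany it in the series. These controls are titled as input, but their antibody is given as anti-mouse IgG, and how they were used is not given in the sources used here. None of the cells carried a treatment, per the labels, and all came from 1 line, so the list describes a single tumour genome and not liver tissue. Each immunoprecipitation started from 300 ng of sheared DNA, and read pairs of 51 bp were sequenced after 10 to 16 amplification cycles. Positions are given on hg19, the build named in the submitters' processing notes, counted from 1.

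Trimethylation of lysine 4 on histone H3 is placed on nucleosomes around gene starts, mainly by SET1 and MLL family methyltransferase complexes. Components of these complexes bind unmethylated CG-rich DNA, and the mark is therefore best known from CG-rich promoters, where it flanks a nucleosome-poor start site. Acetylation of lysine 27 accompanies it at active promoters, and monomethylation of lysine 4 is usual on the shoulders of promoters and at enhancers. In liver cells, as elsewhere, most H3K4me3 marks genes used in many tissues, with a smaller number of liver-specific promoters. The questions taken up are how wide the marked regions were, where inside them the signal peaked, how they were spaced along chromosomes, and what lay beside them.

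No value per library was analysed, so the depth of the libraries and the spread between cultures are unknown, and no difference below was tested against replicate error. Spread is given instead as the standard deviation (SD) or the range over 23 chromosomes, which are not replicates, and shares carry 95% Wilson intervals that cover counting error only. Each peak's signal value was assigned by the authors' peak caller, and serves only to rank and describe peaks inside a list. Peaks were not assigned to genes, because an hg19 annotation was not used here, and the liver label was not checked against marker genes for the same reason.

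H3K4me3 peaks came in a narrow, weak form and a wide, strong form, with fewer in between. Their median width was 1536 bp, with quartiles at 730 and 2658 bp, and the range was 312 to 13144 bp. In bins of 200 bp the count was highest from 400 to 600 bp, at 2910 peaks. It was down to 1010 peaks from 1400 to 1600 bp and up again to 1209 from 2200 to 2400 bp. The signal value had the same shape more sharply. On a log2 scale in bins of 0.25, 1555 peaks had values from 2.00 to 2.38 and 2413 had values from 45.3 to 53.8, while the emptiest bin between these humps, which began at 16, held 562.

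Peaks were divided at a signal value of 16, the lower edge of that bin, which was chosen after the distribution had been seen. The 11599 strong peaks had a median width of 2688 bp (quartiles 2107 and 3427) and a median signal value of 42.9. The 12847 weak peaks had a median width of 760 bp (quartiles 507 and 1139) and a median signal value of 3.63. Strong peaks were 47.4% of the list but held 74.2% of its 45.2 Mb. The division is a cut through a range and does not separate kinds of region: 5414 peaks, or 22.1%, had signal values from 8 to 32.

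**Figure D1:**
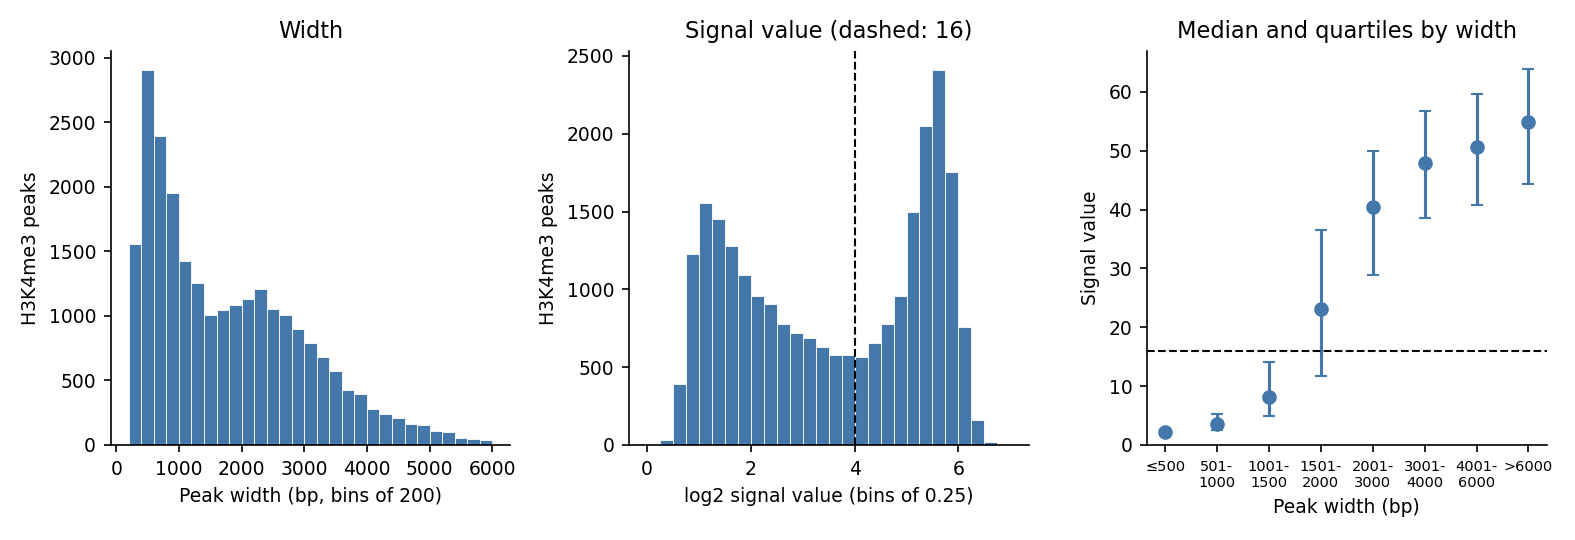
Width of H3K4me3 peaks up to 6000 bp (left, number per 200 bp), their signal value (middle, log2, number per 0.25) and the median signal value with quartiles in 8 classes of width (right). The dashed lines mark a signal value of 16; the 2 humps of signal value lie on either side of it, and the median crosses it between the classes 1001 to 1500 bp and 1501 to 2000 bp.

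Width and signal value went together most closely where peaks were small. In the 3124 peaks of at most 500 bp the median signal value was 2.13, and 0 of them were strong. It was 3.54 from 501 to 1000 bp, 8.16 from 1001 to 1500 bp and 23.1 from 1501 to 2000 bp. Above that it levelled off, at 40.5 from 2001 to 3000 bp, 47.8 from 3001 to 4000 bp, 50.6 from 4001 to 6000 bp and 54.8 in the 246 peaks over 6000 bp. As a description across peaks, which share their libraries, Spearman's rho between width and signal value was 0.88 over all 24446, 0.76 among weak and 0.46 among strong peaks. Both measures come from the same pooled reads and are not independent of each other.

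Few peaks were both narrow and strong. Only 88 strong peaks (0.759% of strong peaks, interval 0.616 to 0.934) were under 1000 bp, while 626 weak peaks (4.87%, 4.51 to 5.26) were over 2000 bp. The other histone marks played no part in this division. Over all 24446 peaks, H3K27ac overlapped 77.5% (77.0 to 78.1) and H3K4me1 92.7% (92.4 to 93.1). H3K27ac overlapped 72 of the 88 narrow strong peaks (81.8%, 72.5 to 88.5) and 549 of the 626 wide weak peaks (87.7%, 84.9 to 90.0), and these intervals overlap. The usual forms lay further apart: 99.8% of 9183 strong peaks over 2000 bp overlapped H3K27ac, against 51.8% (50.8 to 52.9) of 8726 weak peaks under 1000 bp. H3K4me1 was at its lowest in the narrow strong peaks, with 52 of 88 (59.1%, 48.6 to 68.8), and at 87.7% in the weak peaks under 1000 bp. A wider peak also has more room to overlap another region, and overlap was not compared at 1 width here.

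The 5 widest peaks were all strong. The widest lay on chromosome 7 from 130591562 to 130604705, was 13144 bp wide and had a signal value of 30.1. The next lay on chromosome 7 from 5457903 to 5470525 (12623 bp, 50.9), chromosome 1 from 8075550 to 8087908 (12359 bp, 54.7), chromosome 11 from 65183518 to 65195769 (12252 bp, 58.0) and chromosome 12 from 46756558 to 46768577 (12020 bp, 61.4). H3K27ac regions covered 100% of each of the 5, while H3K4me1 regions covered from 16.2% to 64.6% of them. The strongest peaks narrower than the median width were much smaller. They lay on chromosome 12 from 110562009 to 110563132 (1124 bp, signal value 82.5), chromosome 12 from 57399110 to 57400490 (1381 bp, 81.7) and chromosome 19 from 7745433 to 7746912 (1480 bp, 81.6). Of these, H3K4me1 covered 0%, 15.6% and 63.4%, so these peaks of like signal value differed in it.

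The summit, the position of highest signal in a peak, lay near the middle in most H3K4me3 peaks. Dividing its distance from the left edge by the width gave a median of 0.50, with quartiles at 0.41 and 0.59. When each peak was cut into 3 equal parts, the central part held 77.9% of summits (77.4 to 78.4, SD 1.90 over chromosomes, range 73.9 to 81.6), the left part 11.2% and the right part 10.9%. Left and right were balanced, with 50.1% (49.4 to 50.7) of summits left of the middle. The lists carry no strand or gene, so a lean toward the transcribed side, if there is one, would cancel in these shares.

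The widest peaks were less centred. The share of summits in the central part was 82.0% (80.6 to 83.3) in peaks of at most 500 bp and 81.6% from 501 to 1000 bp. It was lower, at 73.0% (71.4 to 74.5), from 1001 to 1500 bp, the class that lies between the 2 humps of width. It was 81.4% (80.3 to 82.4) from 2001 to 3000 bp, the width of a typical strong peak, then 76.5% from 3001 to 4000 bp, 65.1% (62.6 to 67.6) from 4001 to 6000 bp and 46.7% (40.6 to 53.0) above 6000 bp. Among peaks over 2000 bp, summits were central in 78.5% of strong peaks and in 52.1% (48.2 to 56.0) of the 626 weak ones. The median distance from the summit to the nearer edge was 1004 bp from 2001 to 3000 bp, 1353 bp from 3001 to 4000 bp, 1744 bp from 4001 to 6000 bp and 2269 bp above 6000 bp. Of the 5 widest peaks, 3 had the summit in the right part, at 0.81, 0.91 and 0.80 of the width, and the others at 0.34 and 0.58.

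**Figure D2:**
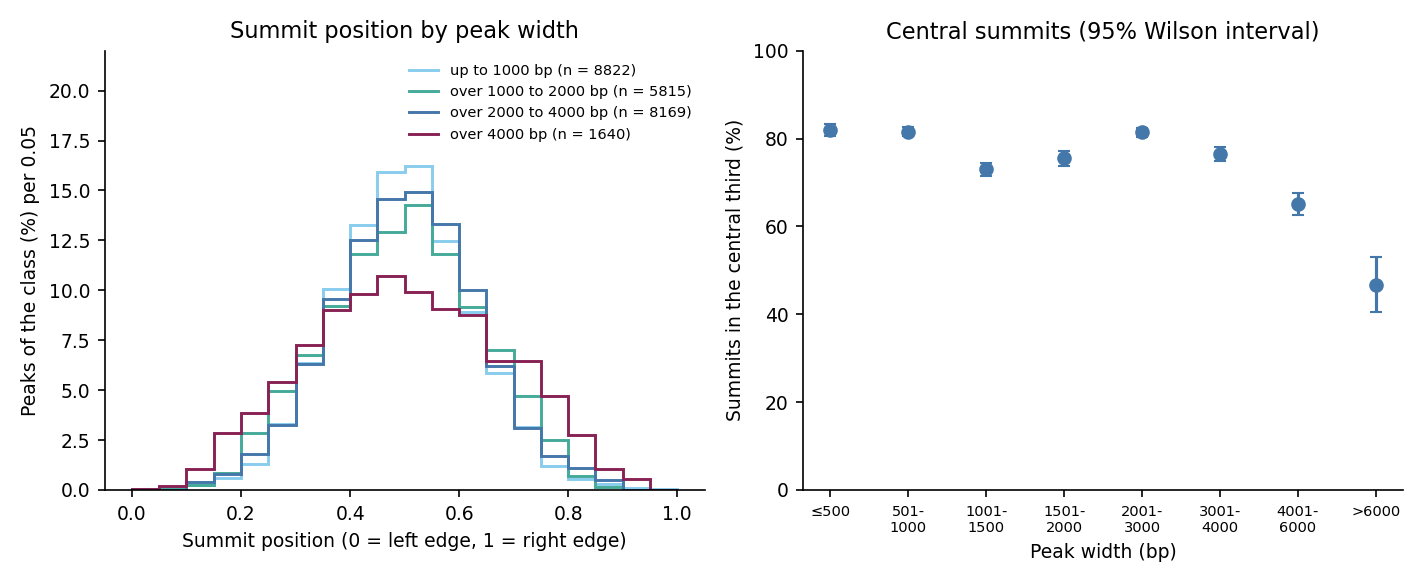
Summit position within H3K4me3 peaks as a fraction of the width (left, percent of the peaks of each of 4 width classes per 0.05), and percent of summits in the central of 3 equal parts in 8 width classes with 95% Wilson intervals (right). The curves peak near the middle and are close to symmetric, the flattest being that of peaks over 4000 bp, and the share of central summits has a dip at 1001 to 2000 bp and is lowest, at 46.7%, above 6000 bp.

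Neighbouring H3K4me3 peaks were mostly far apart. The median of the 24423 gaps between them was 31463 bp, with quartiles at 9216 and 90996 bp. Still, 6.53% of gaps were at most 1000 bp, and among these the ones of 100 to 199 bp were the most frequent. There were 229 gaps of at most 99 bp, the shortest being 51 bp. Then came 393 gaps of 100 to 199 bp, 262 of 200 to 299 bp and 147 of 300 to 399 bp, and 76 of 900 to 999 bp. Counted by peak, 12.4% (12.0 to 12.9, SD 2.90) had a neighbour within 1000 bp, 29.7% within 5000 bp and 90.5% within 100000 bp. Only 266 peaks had none within 500000 bp.

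Weak peaks lay closer to other peaks than strong ones did. The median distance to the nearest peak of any kind was 11492 bp for weak and 16608 bp for strong peaks. A strong peak lay within 1000 bp of 728 weak peaks (5.67%) and within 5000 bp of 1992 (15.5%). Of the strong peaks themselves, 400 (3.45%) had another strong peak within 1000 bp and 1305 (11.3%) within 5000 bp. Weak neighbours were more frequent for both. Another weak peak lay within 1000 bp of 1263 weak peaks (9.83%) and within 5000 bp of 2912 (22.7%). For strong peaks, 721 (6.22%) had a weak peak within 1000 bp and 1846 (15.9%) within 5000 bp. Yet most weak peaks were not companions of a strong one. Their median distance to the nearest strong peak was 32888 bp, against 36622 bp from strong peaks to another strong one. Of the weak peaks, 2986 were over 100000 bp from any strong peak.

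What else marked the weak peaks differed with that distance, although their size hardly did. H3K27ac overlapped 74.8% (72.8 to 76.7, SD 7.84) of weak peaks within 5000 bp of a strong one, 60.8% (59.7 to 61.8) of those over 5000 and up to 100000 bp away and 41.8% (40.0 to 43.6, SD 8.09) of those further off. Their median widths were 776, 769 and 723 bp and their median signal values 3.33, 3.67 and 3.72, so the peaks richest in H3K27ac were not the stronger ones. H3K4me1 overlapped 93.3%, 93.2% and 80.5% of the same groups. The bases between neighbouring H3K4me3 peaks also held less H3K27ac where peaks lay further apart. Its regions covered 21.8% of them at gaps of 2001 to 5000 bp and 1.03% above 100000 bp. The overlaps of weak peaks were not tested against that background.

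Weak peaks without near neighbours had the fewest other marks. Among peaks with no neighbour within 500000 bp, 72 were strong, of which 65 (90.3%) overlapped H3K27ac, and 194 were weak, of which 38 (19.6%) did so. Among peaks whose nearest neighbour was 10001 to 50000 bp away, the same shares were 98.8% of 4748 strong and 57.5% of 4207 weak peaks. H3K4me1 overlapped 53.1% of the isolated weak peaks and 92.2% of the weak peaks at 10001 to 50000 bp. Isolated peaks were also small, with a median width of 926 bp and a median signal value of 5.70, against 1781 bp and 20.1 at 10001 to 50000 bp.

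**Figure D3:**
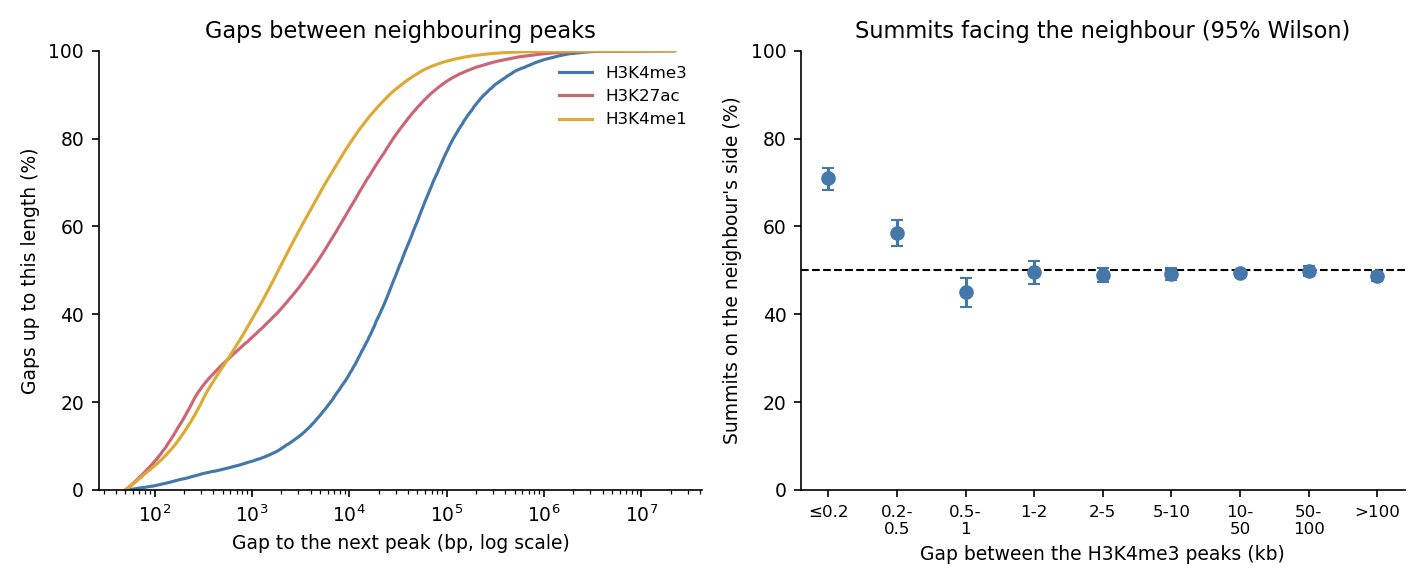
Cumulative percent of gaps between neighbouring peaks by length for the 3 marks (left, log scale), and percent of H3K4me3 summits that lay on the neighbour's side of the peak's middle in 9 classes of gap, with 95% Wilson intervals and 50% dashed (right). H3K4me3 gaps are longer than those of the other marks, and summits face the neighbour in 70.9% of cases at gaps up to 200 bp but stay close to 50% from 1 kb on.

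Close pairs of peaks held fewer pairs of strong peaks than distant ones. Of the 1595 pairs with a gap of at most 1000 bp, 732 (45.9%) joined a strong and a weak peak, 665 (41.7%) 2 weak peaks and 198 (12.4%) 2 strong peaks. In the pairs up to 200 bp apart, the stronger peak had a median signal value of 32.7 and a median width of 1777 bp, the weaker 3.24 and 673.5 bp. A strong peak beside a weak one was about as frequent at 10001 to 50000 bp, in 46.5% of 8505 pairs, where 26.4% of pairs had both weak and 27.1% both strong. The median ratio of signal values within a pair was 3.10 at gaps up to 200 bp, 3.03 from 10001 to 50000 bp and 3.47 above 100000 bp. The share with both peaks strong was lowest from 201 to 500 bp, at 7.65%.

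In the closest pairs the summits leaned toward each other. At gaps up to 200 bp, 885 of 1248 summits (70.9%, 68.3 to 73.4) lay on the neighbour's side of the middle, and the share was over 50% on 22 of 23 chromosomes. Both summits faced the gap in 54.5% of these 624 pairs and both faced away in 12.7%. Where an interval here covers both summits of each pair, it treats them as independent and may be too narrow. From 201 to 500 bp the share was 58.5% (55.5 to 61.5), and from 501 to 1000 bp it was below 50%, at 45.0% (41.7 to 48.2). Between 1001 and 2000 bp it was 49.6% (47.0 to 52.2), and from 10001 to 50000 bp 49.4% (48.7 to 50.2). Over gaps up to 500 bp the lean was greatest where both peaks were strong, with 249 of 302 summits (82.5%, 77.8 to 86.3), against 60.2% (57.1 to 63.2) where both were weak. Gap length differed between these groups. Of the pairs with both strong, 111 had gaps up to 200 bp and 40 from 201 to 500 bp, against 237 and 244 with both weak. Its part in the contrast was not tested. In mixed pairs 69.5% (65.4 to 73.3) of the weak peaks and 60.4% (56.1 to 64.5) of the strong ones faced the other.

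The other marks in these short gaps were set against the outer flanks of the same pairs, taken at the length of the gap on either side. At gaps up to 200 bp, H3K4me1 regions covered 34.3% of the bases in the gap and 79.5% of those in the outer flanks. H3K27ac regions covered 39.9% and 50.9%. From 501 to 1000 bp the order was the other way, with 79.0% of the gap and 72.5% of the flanks in H3K4me1, and 42.9% and 33.0% in H3K27ac. Both marks thus went the same way in each of these 2 classes. From 201 to 500 bp, H3K4me1 covered 53.8% of the gap and 75.9% of the flanks, and H3K27ac 45.2% and 44.2%. Over all 1595 pairs the shares were taken over bases, so longer gaps weighed more, and the marks went opposite ways. H3K4me1 covered 65.8% of the gap and 74.4% of the flanks, with a mean gap-minus-flank difference of -7.77 percentage points over chromosomes (SD 6.85) and a positive value on 4 of 23. H3K27ac covered 43.2% and 38.6%, with a mean difference of 4.74 points (SD 7.68) and a positive value on 17 of 23. Between 2 strong peaks, 132 of 198 gaps (66.7%) held no H3K4me1 and 127 (64.1%) no H3K27ac, against 23.6% and 41.1% of the 665 gaps between 2 weak peaks. By bases, where longer gaps again weigh more, H3K4me1 covered 54.0% of the gaps between strong peaks and 72.8% of their flanks. H3K27ac covered 31.0% and 27.9%. Of these 198 gaps, 111 were at most 200 bp long. The share of flanks without H3K27ac is not given, so these values do not say how most single gaps compare with their flanks. Gaps between strong peaks were also shorter, with a median of 166 bp against 289 bp, and the part of gap length in these shares was not tested.

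Peaks were grouped into clusters wherever the gap was at most 5000 bp. This gave 17175 single peaks and 3125 clusters of 2 or more peaks, which together held 7271 peaks, or 29.7% (29.2 to 30.3, SD 6.17 over chromosomes) of the list. Most clusters were small, with 2412 of 2 peaks, 515 of 3, 142 of 4 and 31 of 5, and the largest held 10. Clusters with 1 strong peak were the most numerous: 1473 clusters (47.1%) had 1 strong peak, 980 (31.4%) none and 672 (21.5%) more than 1. The share of strong peaks was 50.6% (49.9 to 51.4) among single peaks, 41.7% (40.4 to 43.1) in clusters of 2 and 36.5% (34.6 to 38.4) in clusters of 3 or more. Weak peaks in company were more often acetylated. H3K27ac overlapped 52.5% (51.5 to 53.6) of single weak peaks, 68.2% (66.4 to 69.9) of those in clusters of 2 and 73.8% (71.5 to 75.9) of those in clusters of 3 or more.

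The largest cluster lay on chromosome 16 from 1457854 to 1493735 and held 10 peaks in 35882 bp. Its signal values from left to right were 10.7, 66.0, 52.6, 2.24, 4.84, 3.75, 20.4, 9.16, 3.80 and 2.64, so 3 of the 10 were strong. The third strong peak, of 976 bp, stood among weak ones and was narrower than the weak peak of 2530 bp beside it. All 10 overlapped H3K4me1 and 8 overlapped H3K27ac, close to the 92.7% and 77.5% over all peaks.

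The next cluster, on chromosome 7 from 27169068 to 27204346, had 9 peaks in 35279 bp. Signal values ran 52.2, 1.74, 5.39, 43.3, 25.7, 6.67, 9.77, 2.67 and 2.06, with the strong peaks all among the first 5 and the last 4 all weak. H3K4me1 overlapped all 9 and H3K27ac 5, where the shares were 92.7% and 77.5% over all peaks and 90.2% and 58.5% over weak peaks. The cluster on chromosome 11 from 306678 to 330040 also had 9 peaks, in 23363 bp, with signal values of 28.0, 2.65, 14.8, 3.24, 43.2, 6.69, 3.65, 5.51 and 1.74. Here a narrow weak peak of 397 or 418 bp stood on either side of the third peak, which was 2564 bp wide. Peaks filled 54.9% of this cluster, against 39.5% and 33.9% of the other two.

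**Figure D4:**
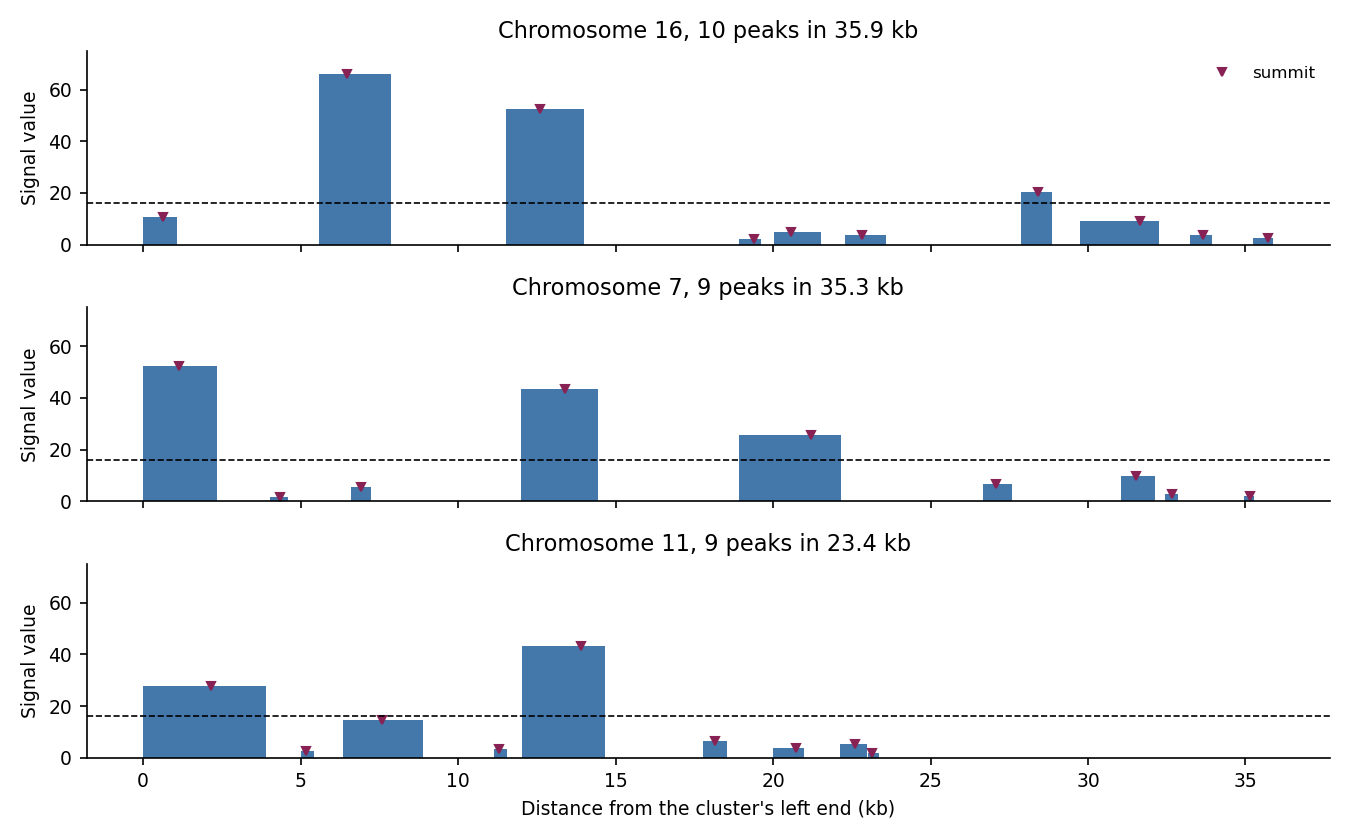
The 3 clusters with most H3K4me3 peaks, drawn to 1 scale: each bar is a peak with its width in kb from the cluster's left end and its signal value as height, triangles mark summits, and the dashed line is a signal value of 16. In each cluster 2 or 3 strong peaks stand among 7, 6 and 7 weak ones.

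Density differed several-fold between chromosomes. Chromosome 19 had 27.8 peaks per Mb, followed by chromosome 17 with 18.1, chromosome 22 with 12.3 and chromosome 16 with 12.0. The fewest were found on chromosome 4, with 4.55 per Mb, then X with 4.60 and 13 with 4.65. The median gap was 14084.5 bp on chromosome 19 and 63405.5 bp on chromosome 4, and the share of peaks in clusters was 47.0% and 21.9%. Width varied far less, with chromosome medians from 1193 bp on 13 to 1751.5 bp on X. On X, 54.1% (50.4 to 57.7) of 714 peaks were strong, the highest share of any chromosome, and weak peaks were at their lowest density, 2.11 per Mb. The interval of chromosome 19, with 52.6% (50.2 to 55.0) strong, overlaps that of X. The lowest shares of strong peaks were 37.5% on chromosome 18 and 37.8% on 21.

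Chromosome density was set beside counts of gene starts, without assigning any peak to a gene. RefSeq promoters of GRCh38.p14, as windows of 250 bases before to 50 after each start, were counted on 22 chromosomes; promoters of chromosome 8 were not used here. A promoter was counted as CG-rich if C and G made up at least 50% of it and the dinucleotide CG reached at least 0.6 of the number expected from its C and G, which 16431 of 34961 (47.0%) did. There were 11194 strong peaks on these chromosomes, or 68.1 per 100 CG-rich promoters. This ratio ran from 54.4 on chromosome 4 to 83.3 on 22, a much narrower range than that of density. Strong peaks per Mb and CG-rich promoters per Mb had a Pearson r of 0.99 and a Spearman rho of 0.95 over 22 chromosomes. Both share the chromosome length as divisor, taken from hg19. Without chromosomes 19 and 17, which lay farthest out, r was 0.96 and rho 0.93. Weak peaks per Mb followed CG-rich promoters too, with an r of 0.97. All peaks per Mb against all promoters per Mb had an r of 0.98 and a rho of 0.96. The match was thus not particular to strong peaks or to CG-rich promoters.

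**Figure D5:**
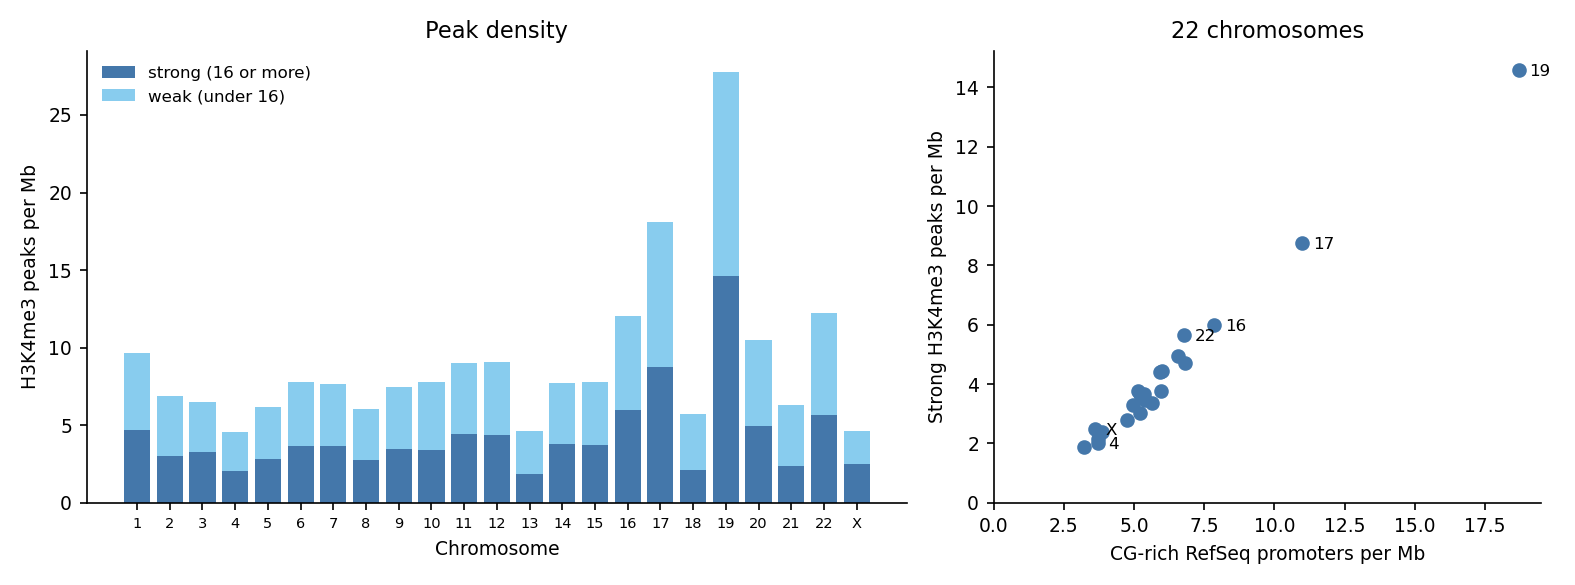
H3K4me3 peaks per Mb on 23 chromosomes, stacked as strong and weak (left), and strong peaks per Mb against CG-rich RefSeq promoters per Mb on 22 chromosomes, some of them labelled (right). Chromosome 19 has the most of both, with 27.8 peaks per Mb in all, and the points lie close to a line.

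Within chromosomes the peaks were unevenly spread as well. In 3030 tiled windows of 1 Mb the mean was 8.02 peaks and the median 5, the most was 69, and 563 windows (18.6%) had none. The variance was 11.7 times the mean, a ratio that would be 1 for independent peaks at an even rate. The fullest 10% of windows held 38.6% of peaks. When each cluster was counted once, the ratio was 7.83. The fullest window, on chromosome 19 from 1000001 to 2000000, held 69 peaks, 34 of them strong. The window beside it, from 2000001 to 3000000, held 66 with 24 strong, and the window on chromosome 1 from 1000001 to 2000000 held 64 with 32 strong. In these 3 windows 60, 59 and 55 of the peaks overlapped H3K27ac, and 69, 65 and 60 overlapped H3K4me1. Over all of chromosome 19 the shares were 83.3% and 95.6%, and over all 24446 peaks 77.5% and 92.7%.

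Stretches of at least 1 Mb between neighbouring H3K4me3 peaks numbered 502 and added up to 980.2 Mb, or 32.3% of the length of the chromosomes. Stretches between a chromosome end and its outermost peak were not counted. The longest of the 502 lay on chromosome 1 from 121262085 to 142705521 (21.4 Mb), chromosome 9 from 46210914 to 66455095 (20.2 Mb) and chromosome 16 from 32199424 to 46607216 (14.4 Mb). These include the centromeres of their chromosomes, and they held 12, 2 and 5 H3K4me1 peaks. Unassembled sequence, and sequence to which reads cannot be mapped, was not set apart in these stretches, in the chromosome lengths or in the 1 Mb windows. Its part in the absence of peaks was not tested. Most stretches were not empty of the other marks: 476 of the 502 held at least 1 H3K4me1 peak and 337 at least 1 H3K27ac peak. The longest with at least 20 H3K4me1 peaks per Mb, picked out after their values had been seen, were a stretch of 2.25 Mb on chromosome 3 from 28391763 to 30645887 and one of 1.90 Mb on chromosome 8 from 128930640 to 130832139. The first held 91 H3K4me1 and 34 H3K27ac peaks, the second 160 and 76, or 40.4 and 84.1 H3K4me1 peaks per Mb beside a mean of 60.1 over all 1 Mb windows, with no H3K4me3 peak in either.

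Against the other marks, H3K4me3 peaks differed in shape as well as number. The 3 lists differ in length, so the strongest 24446 peaks of each were also compared. Over the full lists H3K4me3 peaks were the widest by median, with 1536 bp against 723 bp for H3K27ac and 696 bp for H3K4me1. Shares over 4000 bp were 6.71%, 6.42% and 2.62%. The widest single peaks went the other way, at 13144, 35031 and 27481 bp. In the equal number, which sets the strongest peaks of the other marks against the whole H3K4me3 list, H3K4me3 peaks were the narrowest. Median widths were then 1536 bp for H3K4me3, 2276 bp for H3K27ac and 2230.5 bp for H3K4me1. The share over 4000 bp was 6.71%, 17.4% and 17.1%. H3K4me3 summits were the more central, with 77.9% in the central part against 61.8% (61.2 to 62.4) and 55.5% (54.8 to 56.1), and over the full lists 61.0% and 60.6%. Spacing in the equal number was wider, with median gaps of 31463, 23530 and 13472 bp. Clusters within 5000 bp then held 29.7%, 38.5% and 50.6% of peaks. Facing summits were counted over the full lists only. There, H3K27ac peaks up to 200 bp apart also had summits facing the gap, at 63.6% (63.0 to 64.3). H3K4me1 peaks did so at 52.3% (51.8 to 52.7). At 10001 to 50000 bp these shares were 45.1% (44.6 to 45.7) and 47.2% (46.8 to 47.6), so both marks were above their own distant level. As each mark has 1 pooled list, these differences were not tested against replicate error.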

How the data were processed

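The 3 marks and a control were profiled in HepG2 cells, in 4 groups of 3 libraries per the labels. Peaks were made with MACS2 on hg19, per the submitters' processing notes; aligner, filters, threshold, use of the controls and version are not given in the sources used here. Per the file names, replicates were pooled. The deposited signal value is the authors', on a scale whose reference no source used here names. The authors also deposited a −log10 q-value per peak, and 42 peaks had a q-value above 0.05. The summit offset in the deposited lists was divided by peak width. No peak ended past an hg19 chromosome end (lengths from GenomeInfoDb 1.38.1), and none overlapped another. Regions were shared if they had at least 1 bp in common.

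The members and lists were chosen with earlier results of these data known. Regions named by position followed a rule. It took the 5 widest peaks, and the 3 clusters and 3 tiled 1 Mb windows with most peaks. It also took the 3 longest stretches between neighbouring peaks and the 3 strongest peaks under the median width. Alternatives were a minimum −log10 q-value of 5, the stronger 50% of peaks, joining peaks within 1000 bp, autosomes, other cluster distances and other windows. The planned naming of genes was not run for want of an hg19 annotation. Python 3.11.15, numpy 2.4.6, pandas 2.3.3, scipy 1.17.1 and matplotlib 3.10.9 were used, and the interval functions were tested on simulated data.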

Additional observations from a re-analysis of the deposited data

Results flagged for a closer look

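Chromosome Y, which lies outside the set described, carried 35 H3K4me3 peaks, and no value of the control libraries was analysed beside them. Their median width was 1063 bp (range 317 to 5024) and their median signal value 10.9, with a highest value of 56.9, and 15 of the 35 had a signal value of 16 or more.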

How the results depend on the processing

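The count of peaks stayed within 1.5 times its value under each alternative run (22851 to 23732), and leaving out X moved none of the 5 planned results beyond counting error. Of 20 alternative values of these results 13 moved more than that. With the −log10 q-value set to 5 or more, the median width was 1638 bp, the median gap 32873 bp, the share in clusters 28.2% and the share of central summits 78.7%. In the stronger 50% of peaks these were 2633 bp, 65656.5 bp, 12.0% and 78.6%; fewer peaks lengthen gaps by construction. Joining peaks within 1000 bp gave a median width of 1755 bp and a median gap of 35966.5 bp. Clusters held 12.4% of peaks at gaps up to 1000 bp and 42.8% at gaps up to 10000 bp. Central summits made up 75.8% of peaks of at least 1000 bp. The variance over the mean per window was 2.67 at 100 kb and 33.0 at 5 Mb. The remaining alternatives were added after seeing the data. That ratio was 10.8 in 1 Mb windows with an H3K4me1 peak. Pairs of a strong and a weak peak made up 47.4% and 41.2% of close pairs with the division at 8 and 32. Facing summits at gaps up to 500 bp, 65.3% in all, were 68.2% with the q-value filter and 69.6% in 291 pairs with both peaks at least 1000 bp. H3K27ac overlapped 47.7% of 944 peaks isolated by over 200000 bp and 25.7% of 70 isolated by over 1000000 bp. Leaving out a library was not possible with pooled lists. No paired analysis was possible because the lists carry no value per library.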

Other observations

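In 38 of the 24446 H3K4me3 peaks the summit lay in the outer 10% of the width at either end. These peaks were mostly weak, with a median signal value of 1.67 and a median width of 714.5 bp, and 11 of them were strong. They were not all small. By width, 13 were at most 500 bp (0.416% of that class) and 10 were 501 to 1000 bp (0.176%). Another 8 were 4001 to 6000 bp (0.574%) and 5 were over 6000 bp (2.03%). Peaks of 1001 to 1500 bp and of 1501 to 2000 bp gave 1 each, and those of 2001 to 4000 bp gave 0. A neighbour within 1000 bp was found for 14 of them (36.8%, 95% Wilson interval 23.4 to 52.7), against 10.6% (10.1 to 11.0) of peaks with the summit in the central of 3 equal parts. H3K4me1 overlapped 37 of the 38 (97.4%, 86.5 to 99.5), an interval that holds the 92.7% over all peaks. Such summits were rarer than in the other lists, at 0.155% of H3K4me3, 1.25% of H3K27ac and 1.03% of H3K4me1 peaks.

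The shortest gap was 51 bp in each of the 3 lists, and the labels give a read length of 51 bp. The narrowest peaks were 312 bp for H3K4me3, 232 bp for H3K27ac and 297 bp for H3K4me1, and 64 H3K4me3 peaks had exactly the minimum width.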
